A study of Homo sapiens with 36 samples.

Results

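Enzalutamide was compared with its vehicle in LNCaP prostate cancer cells after 24 h. The comparison took in every sample labelled with enzalutamide or DMSO at that hour, 6 of the 36 samples of the series. In 3 cultures the cells had received 3 µM enzalutamide, and in 3 cultures they had received the solvent DMSO. The other samples, treated for 8 or 72 h or given olaparib, an inhibitor of PARP enzymes, are used below only to set the 24 h response against the response at another time or in the presence of olaparib. All groups grew in RPMI 1640 medium with 10% fetal bovine serum, so the vehicle cultures were not deprived of serum hormones. LNCaP is an established line from a lymph node metastasis of a prostate carcinoma that depends on androgens for growth. The series used this 1 line, and the p-values measure the spread between cultures of it.

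The androgen receptor is a steroid-activated transcription factor. With its ligand bound it enters the nucleus, binds androgen response elements in promoters and distant enhancers, and drives the genes of the secretory prostate epithelium, among them the kallikrein proteases. Enzalutamide occupies the ligand pocket and keeps the receptor from entering the nucleus and binding DNA. In hormone-driven prostate cancer cells the receptor also sustains lipid synthesis and entry into the cell cycle, and it holds down a smaller set of genes.

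The 6 libraries held 7.48 to 15.42 M counts, and log levels of replicate cultures correlated at 0.9906 to 0.9932, against 0.9828 to 0.9871 between treated and vehicle cultures. The first principal component of the 6 held 46.8% of the variance and separated the treatments. LNCaP markers were present in all 6 libraries, with KLK3 at 644 to 830 CPM in the vehicle cultures. CPM are counts scaled to library depth with TMM factors. The basal markers KRT5 and TP63, the fibroblast marker FAP and the blood and endothelial markers CD3E, CDH5, HBB, KDR and PECAM1 had no count in any of the 6. Some other members of the basal and stromal lists were present, with ITGA6 at 34.8 to 38.7 CPM and COL1A1 at 20.5 to 26.2 CPM. The 7 basal markers summed to 43.7 to 47.9 CPM in vehicle and 42.5 to 47.1 CPM in enzalutamide. For the 9 stromal markers the sums were 29.9 to 32.9 CPM and 32.9 to 38.3 CPM. The 10 blood and endothelial markers summed to 7.36 to 9.68 CPM in vehicle and 3.49 to 4.26 CPM in enzalutamide, mostly from VWF, which fell by 1.25 on the log2 scale. Counts of mitochondrially encoded genes made up 4.0 to 4.78% of the vehicle libraries and 5.54 to 6.53% of the treated ones. The groups did not overlap in that share. With those genes left out before scaling, an alternative added after seeing the data, 2953 genes were called in place of the 2960 given next.

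Enzalutamide changed 2960 of the 15744 genes tested at 24 h, which is 18.8%, by an adjusted p below 0.05. Of these, 1293 rose (8.21% of genes tested) and 1667 fell (10.6%). Counts of list members called at 24 h, given below, stand against these shares of all genes. Most changes were small: 74.5% of the genes called moved by less than 1.5-fold, with a median size on the log2 scale of 0.414 among the rises and 0.363 among the falls. The falls reached farther. At 4-fold or more, 38 genes fell and 19 rose, and at 8-fold or more 17 fell and 4 rose. The median log2 fold change over all genes tested was 0.01. The share called went with the level, with 4.87% of genes called below 1 CPM and 32.2% above 100 CPM. The treated and vehicle cultures did not overlap in 5708 genes (36.3%), and 2859 of the 2960 genes called were among them. A log2 fold change is given below as treated over vehicle with its standard error, and p-values are adjusted over all genes tested.

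**Figure D1:**
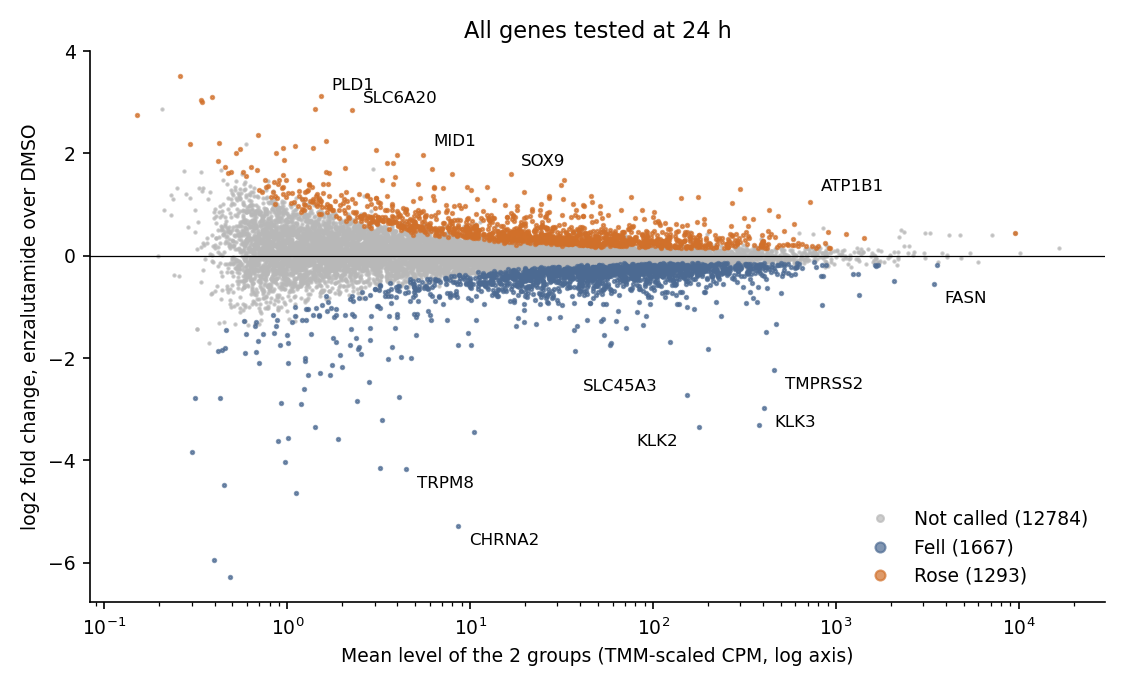
Log2 fold change of enzalutamide over DMSO at 24 h (y axis) against the mean level of both groups in TMM-scaled CPM (x axis, log scale), with 1 point for each of the 15744 genes tested. Blue points fell (1667), orange points rose (1293) and grey points were not called. The falls of TRPM8, CHRNA2 and KLK2 are larger in size than the largest labelled rise, that of PLD1. Those of KLK3 and TMPRSS2 are smaller than it.

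The secretory and kallikrein genes that androgen is known to induce had the lowest median of all lists with more than 1 gene tested. All 10 members tested were called, 8 lower and 2 higher, against 10.6% and 8.21% of all genes, and their median log2 fold change was -1.23. KLK3, which encodes prostate-specific antigen, stood at 667, 830 and 644 CPM in the vehicle cultures and at 101, 102 and 69.9 CPM in the treated ones. All treated cultures lay far below all vehicle cultures, a 7.88-fold drop (log2 fold change -2.98 ± 0.11, adjusted p 8.2e-23). KLK2, its neighbour on chromosome 19 and a protease that cleaves the precursor of prostate-specific antigen, went from 306, 364 and 307 CPM to 32.5, 36.5 and 27.3 CPM. It fell by 3.35 ± 0.10 on the log2 scale (adjusted p 2.2e-25). KLK4, an enamel and prostate protease of the same cluster, kept more of its level, at 592, 642 and 596 CPM without and 226, 220 and 210 CPM with the drug. CHRNA2, a nicotinic receptor subunit gene used as a readout of androgen action, was close to lost, from 18, 18.2 and 14.2 CPM to 0.328, 0.388 and 0.514 CPM. Its change of -5.28 ± 0.25 (adjusted p 6.7e-19) was the largest of the list. TMEFF2, which encodes a transmembrane proteoglycan, fell by 1.29 ± 0.10 (adjusted p 8.1e-13).

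Some secretory genes went the other way. ACP3, which encodes prostatic acid phosphatase, was measured at 13, 12.7 and 9.91 CPM in vehicle and at 21.9, 21.5 and 20.8 CPM in enzalutamide, with no overlap (0.83 ± 0.10, adjusted p 6.3e-08). PLA2G2A, a secreted phospholipase gene, rose as well (0.80 ± 0.10, adjusted p 2.2e-07). The abundant gene SPON2, which encodes a secreted matrix protein and was named after its values were seen, fell only from 2410 ± 126 to 1720 ± 48.4 CPM (SD, n = 3).

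The promoter of KLK3 is shown because androgen action on this gene has long been studied there. The sequence covers 250 bases before to 50 bases after the start and comes from RefSeq (GRCh38.p14), 5′ to 3′ on the gene's strand. Capitals mark the androgen receptor motif AGAACA, searched on both strands.
KLK3, chr19:50854665-50854964, plus strand: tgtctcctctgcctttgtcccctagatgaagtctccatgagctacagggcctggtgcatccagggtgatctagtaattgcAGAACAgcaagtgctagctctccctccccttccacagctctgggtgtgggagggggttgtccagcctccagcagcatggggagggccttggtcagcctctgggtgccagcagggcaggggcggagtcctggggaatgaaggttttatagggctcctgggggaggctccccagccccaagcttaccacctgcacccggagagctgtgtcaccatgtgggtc
The capitals begin 170 bases before the start. Among the 10 list members tested, 9 had a promoter in the RefSeq table, and 2 of them, KLK3 and PLA2G2A, held AGAACA (22.2%). The same letters were in 14.9% of all 27305 promoters in the table and in 8.63% of those of genes tested. The full palindromic androgen response element, AGAACA and TGTTCT with 3 bases between them, was in no promoter of the list and in 0.00366% of all promoters. KLK3 fell and PLA2G2A rose, so the members that held the letters did not share a direction.

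Androgen-induced genes for membrane, transport and signalling proteins moved the same way. Of 41 tested, 30 fell, 1 rose and 10 were not called, with a median of -0.80. TMPRSS2, a membrane serine protease gene whose promoter is fused to ERG in many prostate tumours, stood at 724, 824 and 725 CPM in vehicle and at 169, 168 and 148 CPM in enzalutamide. It fell by 2.23 ± 0.06 (adjusted p 1.3e-26), a 4.69-fold drop with wide separation of the groups. SLC45A3, which encodes the prostate membrane protein prostein, went from 269, 278 and 248 CPM to 40.6, 43.0 and 37.5 CPM (-2.72 ± 0.08, adjusted p 1.6e-25). TRPM8, the cold and menthol channel gene, dropped from 8.20, 10.3 and 7.10 CPM to 0.218, 0.388 and 0.707 CPM (-4.17 ± 0.26, adjusted p 1.2e-15). HPGD, whose product inactivates prostaglandins, fell by 3.58 ± 0.38 (adjusted p 2.8e-09).

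The check genes of this list, TMPRSS2, FKBP5 and PMEPA1, each fell by more than its median. FKBP5, a chaperone partner of steroid receptors, was at 106, 108 and 118 CPM in vehicle and at 52.0, 49.9 and 52.0 CPM in enzalutamide (-1.11 ± 0.07, adjusted p 3.4e-16). PMEPA1, a gene for a membrane inhibitor of TGF-beta signalling, went from 81.8, 80.2 and 79.8 CPM to 27, 28.8 and 26.8 CPM (-1.55 ± 0.07, adjusted p 4.4e-19). The 1 member that rose was TSC22D3, a glucocorticoid-induced leucine zipper gene, at 83.2, 85.3 and 84.2 CPM against 132, 132 and 130 CPM (0.64 ± 0.07, adjusted p 1.9e-08). Members that were not called included STEAP1, a metalloreductase gene, at 222 ± 3.15 and 213 ± 6.03 CPM (SD, n = 3), and STEAP2, at 820 ± 40.1 and 943 ± 71.0 CPM. AGAACA was in 2 of the 30 promoters available for this list (6.67%), in 14.9% of all promoters and in 8.63% of those of genes tested.

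**Figure D2:**
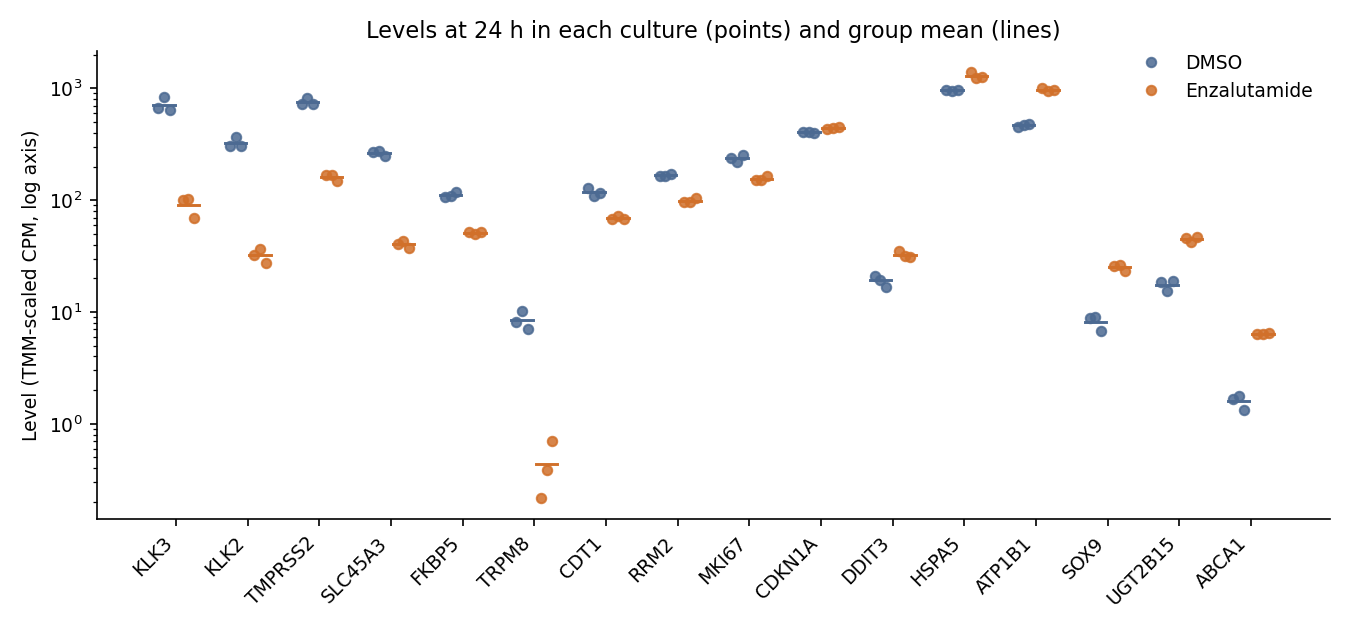
Level of 16 genes at 24 h in each culture (TMM-scaled CPM, log axis), with blue points for the 3 DMSO cultures, orange points for the 3 enzalutamide cultures and lines at the group means. The groups overlap for none of the genes drawn. KLK3, KLK2, TMPRSS2, SLC45A3 and TRPM8 lie far apart, and CDKN1A differs by a small step.

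Genes that androgen represses rose together. Among 18 tested, 13 rose and none fell, with a median of 0.73. UGT2B15 encodes an enzyme that conjugates dihydrotestosterone to glucuronic acid. It was at 18.4, 15.3 and 18.9 CPM in vehicle and at 46.3, 42.7 and 47.1 CPM in enzalutamide, so the groups were well apart (1.38 ± 0.11, adjusted p 5.9e-13). Its relative UGT2B11 rose by 1.00 ± 0.20 (adjusted p 0.00017). The near-identical UGT2B genes can share reads, so their single values are uncertain. OPRK1, the kappa opioid receptor gene, went from 1.38, 1.68 and 2.28 CPM to 4.04, 4.66 and 5.72 CPM (1.49 ± 0.28, adjusted p 9.2e-05). SI, the intestinal disaccharidase gene, rose by 1.4 ± 0.23 (adjusted p 1.8e-05). CCN3, which encodes a matricellular protein, had only 3 counts over the vehicle cultures and 20 over the treated ones, a ratio of 5.06 with a 95% counting interval of 1.5 to 26.6. It was not called with no filter on low counts, or without the first vehicle, the third vehicle, the first treated or the third treated culture.

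Of 20 steroid receptors and coregulators, 2 rose and 4 fell, with a median of -0.05. That is 30% called, against 18.8% of all genes. PGR, the progesterone receptor gene, rose from a low level, 0.197, 0.319 and 0.803 CPM, to 1.42, 1.75 and 1.29 CPM (1.86 ± 0.40, adjusted p 0.00065). NCOA3, a coactivator gene, rose by 0.44 ± 0.09 and the histone methyltransferase gene NSD2 fell by 0.26 ± 0.05. Without the third vehicle culture 3 of the 20 were called. None of 14 steroid metabolism enzymes was called with edgeR, although 1 was when the first or the second vehicle culture was left out or a lane term was added.

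Transcription factors of the prostate lineage split. Of 14 tested, 3 rose, 6 fell and 5 were not called, so 64.3% were called, against 18.8% of all genes. SOX9, a factor of prostate budding, went from 8.79, 8.94 and 6.83 CPM to 25.9, 26.4 and 23.1 CPM, a 3.02-fold rise (1.59 ± 0.11, adjusted p 7.3e-14). GATA2, which opens chromatin for the receptor, rose from 378 ± 13.7 to 505 ± 17 CPM (SD, n = 3, adjusted p 6.5e-08), and the epithelial factor ELF3 rose by 0.76 ± 0.09. SPDEF, a luminal factor, was at 290, 298 and 276 CPM and fell to 144, 173 and 146 CPM (-0.90 ± 0.07, adjusted p 3.6e-13). KLF4 fell by 0.89 ± 0.10 (adjusted p 1.9e-08). FOXA1 and HOXB13, the pioneer and homeobox factors that guide the receptor to prostate enhancers, were not called, with log2 fold changes of 0.13 ± 0.08 for FOXA1 and 0.02 ± 0.06 for HOXB13.

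Luminal keratin and adhesion genes were divided, with 3 rises and 3 falls among 14 (42.9% called, against 18.8% of all genes). There were 3 calls in all without the first vehicle or the first treated culture. OCLN, a tight junction gene, rose from 34.4 ± 0.785 to 67.5 ± 0.817 CPM (SD, n = 3, adjusted p 1.2e-12). The luminal keratin genes KRT8 and KRT18 were not called, with log2 fold changes of 0.11 ± 0.06 and -0.05 ± 0.07. KRT14, a keratin gene of basal cells, was low and fell from 1.88, 2.15 and 1.61 CPM to 0.109, 0.129 and 0.193 CPM. Among 26 glycosylation enzymes 6 rose and 6 fell, so 46.2% were called, against 18.8% of all genes. The fall of ST6GALNAC1, which adds sialic acid to form the sialyl-Tn antigen, stood out in size, from 19.5, 17.9 and 21 CPM to 1.31, 1.81 and 1.99 CPM (-3.44 ± 0.17, adjusted p 2.6e-18). UAP1, an enzyme of UDP-N-acetylglucosamine synthesis, fell by 0.81 ± 0.06.

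**Figure D3:**
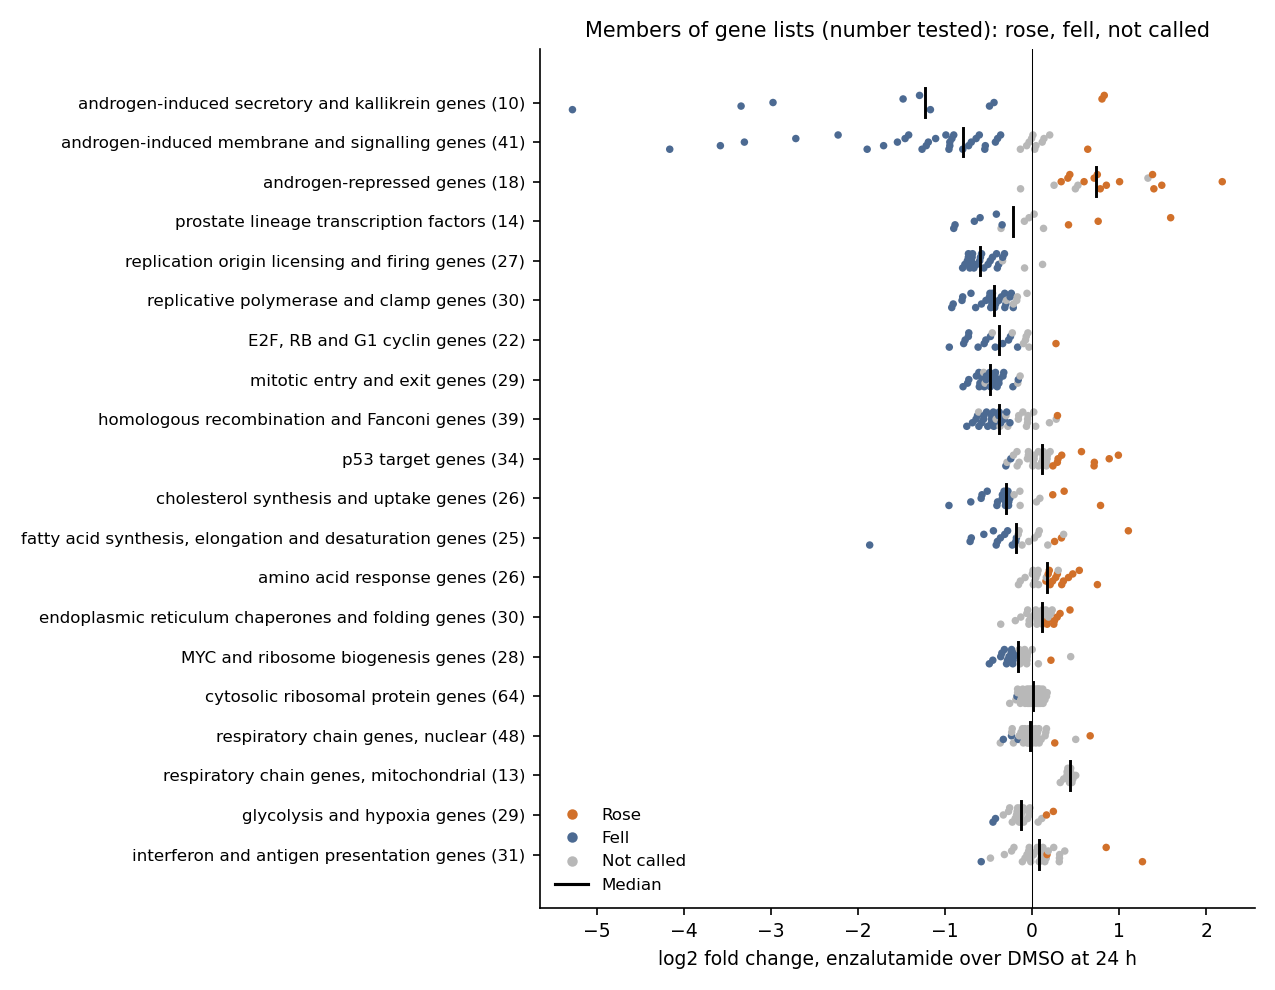
Log2 fold change of enzalutamide over DMSO at 24 h for each tested member of 20 gene lists (number tested in parentheses). Blue points fell, orange points rose, grey points were not called, and black bars are list medians. Androgen-induced and cell cycle lists lie left of 0, androgen-repressed genes lie right of it, and ribosomal protein genes sit around it.

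Genes that prepare and start DNA replication fell as a block. Of 27 origin licensing and firing genes, 24 fell and none rose, with a median of -0.59. CDT1, which loads the MCM helicase onto origins, was at 129, 110 and 117 CPM in vehicle and at 68.0, 72.0 and 68.1 CPM in enzalutamide. The groups were apart (-0.77 ± 0.07, adjusted p 4.3e-11). ORC6, an origin recognition subunit gene, went from 27.6, 31.8 and 33.5 CPM to 17.9, 18.4 and 17 CPM (-0.80 ± 0.08, adjusted p 9.1e-10). MCM10 and CDC45, which activate the helicase, fell by 0.74 ± 0.08 and 0.73 ± 0.11. ORC2, ORC3 and MTBP were the 3 members not called.

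The promoter of CDT1 is shown for this list. Capitals mark E2F motifs, searched on both strands as the letters TTGGCGC or TTCGCGC, with the further forms TTCCCGC or else TTGCCGC, through which E2F factors switch on genes of the S phase.
CDT1, chr16:88803539-88803838, plus strand: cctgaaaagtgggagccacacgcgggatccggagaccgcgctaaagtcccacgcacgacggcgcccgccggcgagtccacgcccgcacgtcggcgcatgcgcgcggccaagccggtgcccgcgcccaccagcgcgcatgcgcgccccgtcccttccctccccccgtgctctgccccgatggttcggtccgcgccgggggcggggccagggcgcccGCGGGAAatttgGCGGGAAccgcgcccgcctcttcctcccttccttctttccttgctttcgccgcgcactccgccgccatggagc
Both marked stretches lie within 35 bases before the start. E2F letters were in 13 of the 21 promoters available for the licensing list (61.9%), in 13.1% of all promoters and in 20.9% of those of genes tested.

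The replication fork genes followed. Among 30 polymerase and clamp genes, 25 fell and none rose (median -0.44). RFC3, a clamp loader subunit gene, went from 34.5, 36.5 and 32.3 CPM to 19.7, 18.1 and 17.8 CPM (-0.91 ± 0.09, adjusted p 6.9e-10). ASF1B, a histone chaperone gene, fell by 0.92 ± 0.08 (adjusted p 6.7e-12). PCNA, the sliding clamp gene, was at 257, 247 and 269 CPM and fell to 200, 179 and 199 CPM (-0.42 ± 0.05, adjusted p 1.7e-07). E2F letters were in 19 of the 26 promoters of this list (73.1%), and in 7 of the 17 of the E2F, RB and G1 cyclin list (41.2%).

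Deoxynucleotide supply and its regulators moved with them. Of 12 supply genes, 8 fell and 1 rose. RRM2, the S-phase subunit of ribonucleotide reductase, stood at 166, 166 and 171 CPM in vehicle and at 96.5, 95.9 and 104 CPM in enzalutamide (-0.76 ± 0.05, adjusted p 4.9e-14). The member that rose was SAMHD1, which degrades deoxynucleotides (0.19 ± 0.06, adjusted p 0.034). Its call was lost with DESeq2, with no filter on low counts, and without the second vehicle, the third vehicle, the first treated or the third treated culture. Of 22 genes for E2F factors, RB proteins and G1 cyclins, 14 fell and 1 rose (median -0.38). E2F1 went from 85.5, 82.8 and 78.7 CPM to 47.3, 48.7 and 48.9 CPM (-0.77 ± 0.06, adjusted p 4.4e-13). E2F2 fell by 0.95 ± 0.12. RBL2, whose product p130 represses E2F targets in resting cells, rose (0.27 ± 0.06, adjusted p 0.0011). CCND1, the cyclin D1 gene, was not called (-0.07 ± 0.05, adjusted p 0.42).

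CDK inhibitors gave a mixed picture, with 3 rises and 4 falls among 15 inhibitor and antiproliferation genes. The share called was 46.7%, against 18.8% of all genes. CDKN1A, the gene of p21, was at 407, 406 and 400 CPM in vehicle and at 431, 443 and 447 CPM in enzalutamide. The groups did not overlap but the change missed the threshold (0.12 ± 0.06, adjusted p 0.17). CDKN1B, the gene of p27, rose by 0.28 ± 0.07 (adjusted p 0.0036), and CDKN2B, the gene of p15, rose from 0.889, 0.957 and 2.01 CPM to 3.49, 2.13 and 3.15 CPM (adjusted p 0.0093). CDKN2B was not called without the first or the second vehicle culture. BTG1, an antiproliferation gene, fell by 0.48 ± 0.08.

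Mitotic genes were lower throughout. Of 29 mitotic entry and exit genes, 25 fell and none rose, with a median of -0.49. MKI67, which encodes the proliferation antigen Ki-67, went from 237, 218 and 254 CPM to 150, 150 and 164 CPM (-0.61 ± 0.11, adjusted p 3.9e-05). AURKB, a kinase gene of chromosome segregation, went from 47.6, 43.6 and 46.1 CPM to 24.1, 28.4 and 26.1 CPM (-0.79 ± 0.09, adjusted p 1.3e-08). MYBL2, a factor of late cell cycle transcription, fell by 0.73 ± 0.05, and ESPL1, the separase gene, fell by 0.61 ± 0.08. Kinesin and condensin genes fell in 16 of 21 cases and centromere and checkpoint genes in 18 of 25, again with no rise. CENPN, a centromere gene that also stood in the androgen-induced list, fell most of these (-1.46 ± 0.12, adjusted p 2.0e-12), and it shares exon bases with CMC2.

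Promoters of 2 mitotic genes are shown. Capitals mark the cell cycle homology region motif TTTGAA, searched on both strands, which the DREAM complex and MYBL2-containing complexes read.
ESPL1, chr12:53268049-53268348, plus strand: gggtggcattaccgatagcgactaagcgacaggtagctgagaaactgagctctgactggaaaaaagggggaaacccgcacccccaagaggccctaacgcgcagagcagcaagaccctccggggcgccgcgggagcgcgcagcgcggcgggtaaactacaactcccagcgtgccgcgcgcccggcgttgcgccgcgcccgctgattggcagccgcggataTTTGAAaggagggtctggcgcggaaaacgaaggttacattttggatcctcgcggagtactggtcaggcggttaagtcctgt
MKI67, chr10:128126374-128126673, minus strand: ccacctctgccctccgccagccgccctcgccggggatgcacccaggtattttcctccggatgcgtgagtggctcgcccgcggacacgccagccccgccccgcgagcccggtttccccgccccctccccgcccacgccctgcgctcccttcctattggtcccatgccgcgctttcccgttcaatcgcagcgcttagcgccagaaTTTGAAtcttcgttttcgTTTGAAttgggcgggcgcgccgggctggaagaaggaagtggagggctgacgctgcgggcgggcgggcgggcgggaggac
ESPL1 holds the motif 31 bases before its start and MKI67 holds it at 2 places. TTTGAA was in 15 of the 22 promoters of the mitotic list (68.2%), in 14 of 20 of the kinesin list (70.0%) and in 12 of 20 of the centromere list (60.0%), against 15.4% of all promoters and 9.33% of those of genes tested. The CCAAT box, read by NF-Y, was in 16 of the 22 mitotic promoters (72.7%) and in 35.7% of all promoters and 37% of those of genes tested.

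DNA repair genes that act with replication fell too. Among 39 homologous recombination and Fanconi genes, 22 fell and 1 rose (median -0.38). RAD54L, a DNA translocase gene of recombination, went from 30.5, 33.3 and 26.8 CPM to 18.1, 17.1 and 19 CPM (-0.75 ± 0.09, adjusted p 2.9e-08). BARD1, the partner of BRCA1, was the member that rose (0.29 ± 0.07, adjusted p 0.0014). Of 24 genes for PARP enzymes, base excision and end joining, 7 fell and 1 rose. That is 33.3% called, against 18.8% of all genes, and 5 were called without the second treated culture. UNG, which removes uracil from DNA, fell by 0.49 ± 0.05 (adjusted p 4.3e-09). PARP1, the main target of olaparib, moved little, from 656, 646 and 660 CPM to 585, 534 and 568 CPM (-0.22 ± 0.06, adjusted p 0.011), and it was not called without the second treated culture.

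Among genes of the p53 pathway most were not called, and the calls were more often rises than falls. Of 34 targets 9 rose, 2 fell and 23 were not called, with a median of 0.12. That is 32.4% called, against 18.8% of all genes, where 8.21% rose and 10.6% fell. SESN1, a stress-induced regulator of growth signalling, went from 47.6, 44.1 and 49.1 CPM to 96.0, 84.7 and 79.7 CPM (0.89 ± 0.07, adjusted p 1.1e-11). TP53INP1 rose by 0.71 ± 0.07 and KITLG, which encodes stem cell factor, by 0.99 ± 0.15. PLK2 and AEN fell by 0.30 ± 0.07 and 0.24 ± 0.07, and AEN was not called without the first vehicle, the first treated or the second treated culture. Of 16 BCL2 family genes 3 rose and none fell, so 18.8% were called, the same share as over all genes. BMF, a proapoptotic member, went from 14.4, 16.2 and 14.2 CPM to 27.7, 29.8 and 27.8 CPM (0.92 ± 0.10, adjusted p 1.5e-09), and MCL1, a survival member, rose by 0.38 ± 0.05. Of 13 histone genes 6 rose and 2 fell, so 61.5% were called, against 18.8% of all genes. H4C8 rose by 0.53 ± 0.11, and H1-10, a linker histone gene expressed outside S phase, was among those that fell. Without the first vehicle culture 5 histone genes were called, and without the second vehicle or the third treated culture 4 were.

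Most genes of sterol and fatty acid synthesis that were called had lower RNA levels. Of 26 cholesterol synthesis and uptake genes, 18 fell and 3 rose (median -0.30). INSIG1, a sterol sensor gene, went from 166, 194 and 162 CPM to 109, 109 and 103 CPM (-0.70 ± 0.06, adjusted p 8.1e-12). INSIG2, which is less dependent on sterol-regulated transcription, rose from 10.5, 15.2 and 11.5 CPM to 22.3, 21.1 and 21.9 CPM (adjusted p 2.0e-05). The sterol motif TCACNCCAC was in 1 of the 20 promoters of this list, that of SREBF2, and in 1.15% of all promoters.

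Of 25 fatty acid synthesis, elongation and desaturation genes, 13 fell and 3 rose (median -0.18). FASN, the fatty acid synthase gene, was among the most abundant transcripts and went from 4100, 4170 and 3930 CPM to 2650, 2900 and 2750 CPM (-0.56 ± 0.09, adjusted p 1.2e-05). ELOVL7, an elongase gene, went from 57.5, 57.2 and 62.0 CPM to 16.8, 15.6 and 16 CPM (-1.87 ± 0.09, adjusted p 7.6e-19). ACSL4, which activates polyunsaturated fatty acids, rose from 1.28, 1.12 and 1.47 CPM to 3.38, 2.52 and 2.51 CPM. Of 9 LXR and sterol efflux genes 3 rose and 2 fell (55.6% called, against 18.8% of all genes). Only 3 were called without the third vehicle or the third treated culture. ABCA1, the cholesterol efflux pump gene, rose from 1.68, 1.76 and 1.34 CPM to 6.33, 6.40 and 6.43 CPM (1.97 ± 0.20, adjusted p 1.3e-09), and ABCG1, another efflux pump gene, rose by 0.88 ± 0.10, while SMPDL3A, a phosphodiesterase gene, fell by 0.41 ± 0.12. Fatty acid oxidation genes had 5 rises and no fall among 22, so 22.7% were called, against 18.8% of all genes. ACAA2, a mitochondrial thiolase gene, rose by 0.80 ± 0.14 (adjusted p 2.6e-05).

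Amino acid response genes, targets of the stress factor ATF4, rose by small steps. Of 26 tested 13 rose and none fell, with a median of 0.17. DDIT3, the gene of the stress factor CHOP, went from 21.1, 19.4 and 16.9 CPM to 34.9, 31.5 and 31.2 CPM (0.75 ± 0.10, adjusted p 5.4e-07). It shares exon bases with MARS1 and MBD6. CTH, a cysteine synthesis gene, rose by 0.54 ± 0.12, and CHAC1, which degrades glutathione, by 0.47 ± 0.10. The count of members called dropped to 7 when the third vehicle culture was left out, and to 8 without the first vehicle, first treated or second treated culture. Aminoacyl-tRNA synthetases gave 7 rises and 4 falls among 20 (55% called, against 18.8% of all genes), and TARS1 rose by 0.26 ± 0.05. That count dropped from 11 to 7 members called without the first or second vehicle culture or the first treated culture. Among 20 amino acid transporters 5 rose and 4 fell, so 45% were called, against 18.8% of all genes. SLC7A5, the large neutral amino acid transporter gene, went from 22.6, 19.9 and 18.3 CPM to 31.7, 33.2 and 34.5 CPM (0.70 ± 0.09, adjusted p 1.5e-07), and SLC43A1 fell by 0.60 ± 0.06.

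Genes for chaperones of the endoplasmic reticulum rose in 7 of 30 cases, with no fall and a median of 0.12. That is 23.3% called, against 18.8% of all genes, where 8.21% rose. HSPA5, the gene of the chaperone BiP, went from 969, 957 and 967 CPM to 1400, 1240 and 1270 CPM (0.43 ± 0.07, adjusted p 2.9e-06). XBP1, a factor of the unfolded protein response, was at 239, 236 and 231 CPM and rose to 280, 288 and 275 CPM (0.26 ± 0.05, adjusted p 0.00033). Only 3 members were called without the first treated culture, and 12 when the 24 h libraries alone set the spread. The promoters of both genes are shown, with capitals on the ER stress element, CCAAT and CCACG with 9 bases between them, searched on both strands, which ATF6 binds with NF-Y.
HSPA5, chr9:125241294-125241593, minus strand: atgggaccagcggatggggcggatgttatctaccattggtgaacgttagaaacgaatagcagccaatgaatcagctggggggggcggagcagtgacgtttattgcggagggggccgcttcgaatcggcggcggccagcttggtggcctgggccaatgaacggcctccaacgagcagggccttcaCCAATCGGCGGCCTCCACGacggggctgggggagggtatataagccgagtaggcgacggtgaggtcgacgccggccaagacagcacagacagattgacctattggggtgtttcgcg
XBP1, chr22:28800520-28800819, minus strand: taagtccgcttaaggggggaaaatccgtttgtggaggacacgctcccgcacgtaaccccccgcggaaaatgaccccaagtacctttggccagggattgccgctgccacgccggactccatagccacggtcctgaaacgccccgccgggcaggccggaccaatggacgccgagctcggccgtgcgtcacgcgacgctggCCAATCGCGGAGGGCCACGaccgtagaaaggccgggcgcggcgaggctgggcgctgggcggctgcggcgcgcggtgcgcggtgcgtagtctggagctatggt
This element was in 6 of the 26 promoters of the list (23.1%) and in 0.0806% of all promoters. The ATF4 motif TGATGNAAT was in 1 of the 21 promoters of the amino acid response list and in 1.02% of all promoters, and that 1 gene was not called.

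Of 28 MYC targets and ribosome biogenesis genes, 14 fell and 1 rose (median -0.16), so 53.6% were called, against 18.8% of all genes. LYAR, a nucleolar gene, fell by 0.49 ± 0.10 (adjusted p 0.00036), and MYC fell from 474, 481 and 460 CPM to 426, 440 and 394 CPM (-0.17 ± 0.05, adjusted p 0.016). MYC was not called with no filter on low counts, or without the first vehicle, the second vehicle or the third treated culture. Of 64 cytosolic ribosomal protein genes 1 fell, RPS15 (-0.17 ± 0.06), and the median was 0.01. No ribosomal protein gene was called when a single culture other than the second treated one was left out, and 9 were when the 24 h libraries alone set the spread. Of 48 nuclear respiratory chain genes 2 rose and 3 fell, and 2 or 3 were called without the first or the second vehicle culture or the first treated culture. The share called was 10.4%, against 18.8% of all genes. The 13 mitochondrially encoded respiratory genes had log2 fold changes of 0.32 to 0.50, and none was called. The groups did not overlap in any of them, against 36.3% of all genes tested without overlap. These 13 genes are not independent replicates. All 13 were called when only the 6 libraries of this comparison were fitted. The same held with the 24 h libraries alone, with no filter on low counts, and without the first vehicle culture at 72 h. Mitochondrial counts made up 1.543% of the library of that culture, against 5.565% and 3.969% in the other vehicle cultures at 72 h. MT-CO1, a cytochrome oxidase gene, stood at 8800, 7480 and 7940 CPM in vehicle and at 12000, 10800 and 10200 CPM in enzalutamide.

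Growth factor signalling genes included marked changes. Of 21 receptor tyrosine kinase and insulin signalling genes, 3 rose and 6 fell, so 42.9% were called, against 18.8% of all genes. IGF1R, the insulin-like growth factor receptor gene, went from 43.3, 43.6 and 43.0 CPM to 17.8, 20 and 18.6 CPM (-1.20 ± 0.10, adjusted p 2.0e-12), and its adaptor gene IRS2 fell by 0.74 ± 0.18. GRB10, an adaptor that restrains insulin signalling, rose from 235, 240 and 234 CPM to 383, 405 and 399 CPM (0.74 ± 0.05, adjusted p 1.2e-15). Of 19 FOXO targets 7 rose and 1, IRS2, fell, so 42.1% were called, against 18.8% of all genes. FOXO3 itself rose by 0.59 ± 0.05 (adjusted p 2.6e-11) and CCNG2, a cyclin gene of cell cycle exit, by 0.71 ± 0.07.

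Of 29 glycolysis and hypoxia genes, 2 rose and 2 fell, and 7 were called without the first vehicle culture. Hypoxia genes varied between vehicle cultures, with PLOD2, a collagen modifier, at 0.395, 6.46 and 1.47 CPM. Of 31 interferon and antigen presentation genes, 3 rose and 1 fell: IRF1 rose by 0.85 ± 0.14 and OAS3, an antiviral sensor gene, fell by 0.58 ± 0.07. NF-kB genes had 1 rise and 3 falls among 14, immediate early genes 1 rise and 3 falls among 20, and autophagy and lysosome genes 4 rises and 1 fall among 33. The shares called were 13.8% in the glycolysis and hypoxia list, 12.9% in the interferon list, 28.6% in the NF-kB list, 20% in the immediate early list and 15.2% in the autophagy list, against 18.8% of all genes. Leaving out a single culture brought the calls down to 2 in the hypoxia list (the first or the third treated), the interferon list (second vehicle or second treated), the NF-kB list (second vehicle or first treated) and the immediate early list (the first vehicle or the third treated). No neuroendocrine or neural gene among 8 tested was called, except that 1 was when the second vehicle culture was left out. Among 12 surface targets of therapy, TMEFF2 fell and FOLH1, the gene of prostate-specific membrane antigen, rose from 739, 774 and 766 CPM to 1100, 1030 and 1020 CPM (0.47 ± 0.11, adjusted p 0.0013). The share called among surface targets was 16.7%, against 18.8% of all genes.

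Genes were also ranked by fold, among called genes with at least 1 CPM in the higher group and no overlap of cultures. The rises given here started from low levels in vehicle, and not every gene of that ranking is given. PLD1, a phospholipase D gene, went from 0.197, 0.319 and 0.402 CPM to 3.28, 2.2 and 2.76 CPM (8.66-fold, adjusted p 8.1e-08). SLC6A20, a proline transporter gene, went from 0.691, 0.399 and 0.535 CPM to 4.48, 3.75 and 3.73 CPM (7.25-fold, adjusted p 4.6e-08). MID1, a ubiquitin ligase gene of microtubules, rose from 1.88, 2.39 and 2.41 CPM to 8.95, 8.28 and 9.13 CPM (1.97 ± 0.17). PKP1, a plakophilin gene of desmosomes, had 65 counts over the vehicle cultures and 3 over the treated ones, a ratio of 28.6 with a 95% counting interval of 9.35 to 142. ADH1C, an alcohol dehydrogenase gene, fell by 4.04 ± 0.54 (adjusted p 5.8e-07).

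Ranked by p-value, the rises were of moderate size and even between cultures. NUCB2, which encodes the precursor of nesfatin, went from 106, 107 and 116 CPM to 253, 234 and 239 CPM (1.15 ± 0.06, adjusted p 4.4e-18). NIPSNAP3A went from 86.5, 88.5 and 91.8 CPM to 198, 193 and 194 CPM (adjusted p 5.3e-17). ATP1B1, the sodium pump beta subunit gene, went from 448, 469 and 485 CPM to 1010, 951 and 961 CPM (1.06 ± 0.06, adjusted p 2.6e-17). Among genes that were called and not encoded in mitochondria, it also gained most per gene length, from 163 to 340 RPKM. In the same unit and among the same genes PFN1, an actin-binding gene, lost most, from 931 to 725 RPKM, ahead of KLK4 with 315 and 113 RPKM.

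The 24 h response was set against those at 8 and 72 h, whose libraries are separate. At 8 h, 476 genes were called (3.02%, with 1.09% higher and 1.94% lower), and at 72 h 4287 (27.2%, with 12.7% higher and 14.6% lower). Of the genes called at 24 h, 384 were called at 8 h (13% of the 24 h calls and 80.7% of the 8 h calls), 381 of them in the same direction. At 72 h 1578 were called (53.3% and 36.8%), 1472 in the same direction, and 1332 were called at 24 h alone. By the test of the difference between hours, the effect at 24 h departed from that at 8 h in 432 genes (2.74%), of which 133 were higher (0.845%) and 299 lower (1.90%). It departed from that at 72 h in 1481 genes (9.41%), of which 762 were higher at 72 h (4.84%) and 719 lower (4.57%). With only the libraries of that contrast 579 genes differed, and with library totals as the scaling 68.1% of the genes that differed were higher at 72 h, against 51.5%. The first vehicle culture at 72 h enters the comparison of 8 with 24 h only through the shared estimate of spread, and without it 763 genes differed between those hours. That culture is part of every effect at 72 h, and without it 1224 genes differed between 24 and 72 h.

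Androgen-induced genes differed in their course. For KLK3 the effect was -0.88 at 8 h, -2.98 at 24 h and -6.67 at 72 h, and each step passed the test (adjusted p 8.1e-13 and 1.4e-17). PMEPA1 was at -1.72, -1.55 and -1.71 with neither step called (adjusted p 0.50 and 0.41). TMPRSS2 went from -1.98 to -2.23 and then to -2.56, where only the later step passed (adjusted p 0.0078). CHRNA2 fell by a further 2.94 ± 0.39 between 8 and 24 h. Its later step, -0.19 ± 0.60, was not called. Members that rose at 24 h differed too: PLA2G2A was at 0.04, 0.80 and 2.00, with the later step called (adjusted p 5.1e-07), and TSC22D3 turned from 0.64 at 24 h to -0.83 at 72 h (adjusted p 4.1e-12). UGT2B15, an androgen-repressed gene, was at 0.18, 1.38 and 2.37, and both steps passed.

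The cell cycle lists given here had lower medians at 24 h than at 8 or 72 h, with unequal counts of members that differed by hour. In the mitotic list 18 of 29 members had a lower effect at 24 h than at 8 h by the test, and 23 had a higher effect at 72 h than at 24 h, with list medians of -0.05, -0.49 and 0.07. In the licensing list these counts were 16 and 17 of 27, with medians of -0.10, -0.59 and -0.11. They were 8 and 11 of 30 in the polymerase and clamp list, 9 and 12 of 21 in the kinesin list, 9 and 6 of 25 in the centromere list, and 8 and 9 of 22 in the E2F list. CENPN, of the centromere list, was at -0.83, -1.46 and -1.46. CDT1 was at -0.04, -0.77 and -0.22, and RRM2 at -0.11, -0.76 and -0.03. The background for a lower effect at 24 h than at 8 h is 1.90%, and for a higher effect at 72 h it is 4.84%.

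The amino acid response and chaperone genes turned over by 72 h. Of 26 amino acid response genes, 23 had a lower effect at 72 h than at 24 h, against 4.57% of all genes. At 72 h 21 of them were called below vehicle, against 14.6% of all genes. The list medians were 0.12, 0.17 and -0.56. DDIT3 was at 0.12, 0.75 and -0.81. In the chaperone list 19 of 30 had a lower effect at 72 h than at 24 h, against the same 4.57%. Its medians were -0.03, 0.12 and -0.23. HSPA5 was at -0.16, 0.43 and -0.21, and both of its steps passed (adjusted p 5.5e-05 and 4.8e-06). Cholesterol genes had medians of -0.06, -0.30 and -0.36. Of 26, 2 differed between 24 and 72 h, against 9.41% of all genes.

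**Figure D4:**
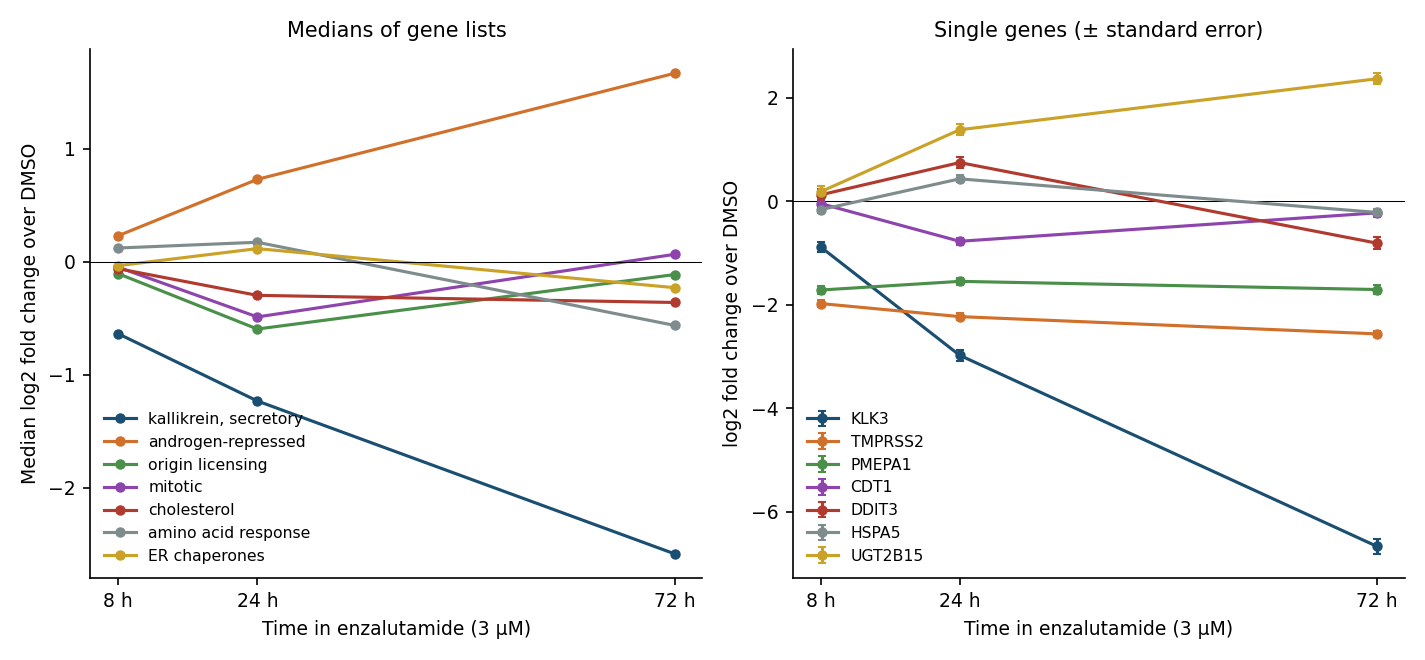
Log2 fold change of enzalutamide over DMSO of the same hour (y axis) after 8, 24 and 72 h (x axis, hours). The left panel has list medians and the right panel single genes with standard errors. The licensing and mitotic lists and CDT1 dip at 24 h, KLK3 falls at each hour, and DDIT3 and HSPA5 are above 0 at 24 h and below 0 at 72 h.

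The effect of enzalutamide was also measured on a background of 3 µM olaparib, as the combination against olaparib alone at 24 h, in 6 other libraries. There 2141 genes were called (13.6%), of which 929 rose (5.9%) and 1212 fell (7.7%). Of the 2960 genes called without olaparib, 2816 had the same sign with it (95.1%), and 1509 were called in both (51.0% of the calls without and 70.5% of those with olaparib). Across these 2960 genes, which are not independent replicates, the effects correlated at 0.90, and the slope through the origin was 0.822. They were chosen for their call without olaparib, and over all genes tested the correlation was 0.662. The effect differed with and without olaparib in 0 genes by edgeR and in 0 by DESeq2, with 959 genes at an unadjusted p below 0.05 (6.09%) and a smallest adjusted p of 0.38.

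Single genes are given on both backgrounds. TMPRSS2 fell by 2.23 ± 0.06 without and by 2.37 ± 0.06 with olaparib, and the CHRNA2 effects were -5.28 ± 0.25 and -5.28 ± 0.30. For KLK3 the effects were -2.98 ± 0.11 and -3.70 ± 0.11, a difference of -0.72 ± 0.15 that was not called (adjusted p 0.38). For CDT1 they were -0.77 ± 0.07 and -0.37 ± 0.07 (difference 0.41 ± 0.10, adjusted p 0.41). The medians of the licensing list were -0.59 and -0.47, and those of the mitotic list -0.49 and -0.44. A p that misses the threshold does not show that the effects were equal.

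**Figure D5:**
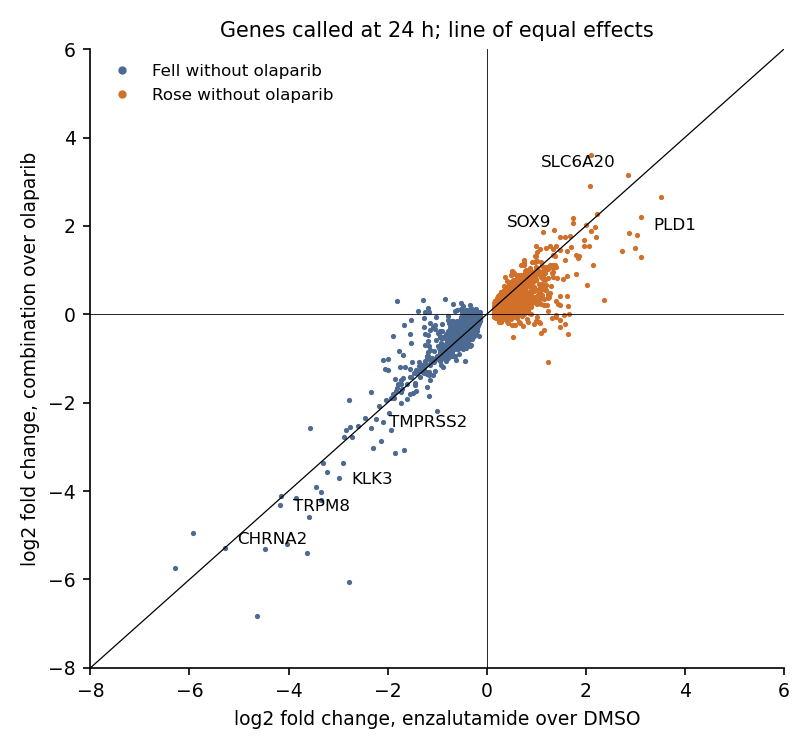
Log2 fold change of the combination over olaparib (y axis) against that of enzalutamide over DMSO (x axis) at 24 h for the 2960 genes called in the latter. Blue points fell and orange points rose without olaparib, and the diagonal marks equal effects. CHRNA2, TRPM8, TMPRSS2 and SLC6A20 lie close to the diagonal, and 95.1% of the points have the same sign on both axes.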

How the data were processed

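Messenger RNA of LNCaP cultures was sequenced as paired reads. The deposited counts are whole fragments per gene that the authors obtained with featureCounts 2.0.0 on the Ensembl release 99 annotation of GRCh38, per the file headers, with no strand option. Fragments of 20 to 5000 bases were counted. STAR, featureCounts, DESeq2 and hg38 are named in the submitters' processing notes. No strand was used, so genes that share exon bases have uncertain levels: among those named, ATP1B1, CCND1, CENPN, DDIT3, DEGS2, DNMT1, ELF3, FOXA1, H1-10, IRF1, KRT8, KRT18, MTBP, NCOA3, PFN1, PMEPA1, RAD54L, RBL2, SQSTM1 and SREBF2.

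Symbols were known for 60357 of the 60676 genes. The 36 libraries (4.15 to 15.42 M counts) were fitted together with edgeR 4.0.16 (R 4.3.3) by its quasi-likelihood test, with 1 mean for each of 12 groups, TMM scaling and the default filter on low counts, which left 15744 genes. P-values were adjusted by the Benjamini-Hochberg method and called below 0.05. The standard error is the absolute log2 fold change divided by the square root of F. Groups came from the sample titles. The hours and the olaparib backgrounds were compared by contrasts of effects. DESeq2 1.42.0, other scalings, filters and sample sets, and leaving out each culture were tried. Scripts were tested on simulated data. RPKM values use the gene lengths in the deposited table. Counting intervals are exact, at the 95% level, and cover counting error only.

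The members and lists were chosen with earlier results of these data known. The text names called genes from these orders, though some genes within an order are passed over. By fold they were up to 15 each way with at least 1 CPM and no overlap of cultures. Further orders were 8 by RPKM each way and 5 by p-value each way. Each list gave 5, with any member called against the majority, and each contrast of effects gave 6 each way. Check genes were added. Results for some eligible genes are not reported here.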

Additional observations from a re-analysis of the deposited data

Results flagged for a closer look

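The effect of enzalutamide differed by hour in tests of the difference itself, in 432 genes between 8 and 24 h and in 1481 genes between 24 and 72 h. Differences are on the log2 scale, the later hour minus the earlier one, and their causes were not tested.

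From 8 to 24 h the effect moved down by these values: ADH1C -3.3, CHRNA2 -2.94, TRPM8 -2.83, PHGR1 -2.54, ST6GALNAC1 -2.36 and TRGC1 -2.34. It moved up by 2.63 in KCNU1, 2.07 in GLI1, 2.0 in JMJD7-PLA2G4B, 1.88 in RUSC1-AS1, 1.8 in PPM1F-AS1 and 1.68 in MALAT1. JMJD7-PLA2G4B is a readthrough gene and both antisense genes were counted without strand, so their levels are uncertain. Over the alternatives, the difference was no longer called in 7 settings for RUSC1-AS1, the replicate block and the lane term among them, in 5 for GLI1, in 4 for PPM1F-AS1 and in 2 for MALAT1 (without the second vehicle or the second treated culture).

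From 24 to 72 h the effect moved down in KLK3 (-3.7), KLK2 (-3.43), PLOD2 (-2.91), PGC (-2.69), ST6GALNAC1 (-2.69) and FGF21 (-2.42). It moved up in AOC1 (3.19), RRM2P3 (1.91), DEGS2 (1.89), PRIMA1 (1.81), RFX6 (1.7) and GPR137C (1.69). RRM2P3 is a pseudogene of RRM2 and may share its reads. The difference was no longer called in 3 settings for RRM2P3, in 2 for PLOD2, in 2 for DEGS2 and in 1 for PRIMA1.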

How the results depend on the processing

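The count of 2960 genes was 2953 with RLE factors, 2916 with library totals, 2618 with no filter, 2569 with DESeq2, 3412 with the 6 libraries alone and 3106 with a lane term. It was 2150 to 2483 when any culture was left out, 1786 at an adjusted p below 0.01 and 279 at 2-fold or more. In fits added after seeing the data it was 3633 with the 24 h libraries alone, 3516 without the first vehicle culture at 72 h and 2953 without mitochondrial genes. Of 277 genes eligible to be named, 214 kept their call under all of the 16 alternatives that gave a value (DESeq2 gave none for 5 genes, CCN3, PKP1 and RRM2P3 among them), 62 lost it under at least 1, PLOD2 gained it once and none reversed.

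The count between 8 and 24 h was 322 to 388 when any 24 h culture was left out and 763 without the first vehicle culture at 72 h. That between 24 and 72 h was 1080 to 1341, 1224 without the first vehicle culture at 72 h and 579 with only the libraries of the contrast. With library totals the share of these that were higher at 72 h was 68.1%, against 51.5%. The effect with and without olaparib differed in 31 genes with no filter, in 6 without the second vehicle culture and in 1 without the third treated culture (0 to 6 over the cultures left out).

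Replicate numbers did not pair the cultures (correlations of deviations -0.056, 0.076 and 0.024). With a replicate block the counts were 2995, 445 and 1554 genes. By the library names each group was spread over 3 lanes. Vehicle and treated cultures of the same lane correlated at 0.027, 0.076 and 0.077, and the other pairs at -0.104 to 0.035. With a lane term the counts were 3106, 513 and 1602 genes.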

Other observations

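Chromatin enzymes changed in both directions, 4 up and 4 down among 26, so 30.8% were called, against 18.8% of all genes. TET2, which oxidises methylated cytosine, rose from 31.6 ± 2.02 to 44.9 ± 2.25 CPM (SD, n = 3, edgeR adjusted p 0.00092), and the histone demethylase gene KDM5B rose by 0.41 ± 0.06. SUV39H1, a heterochromatin methyltransferase gene, fell by 0.55 ± 0.10, and DNMT1, the maintenance DNA methyltransferase gene, fell from 228 ± 6.22 to 166 ± 9.95 CPM (SD, n = 3, edgeR adjusted p 7.2e-06).

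Polyamine genes gave 3 falls and 1 rise among 14 (28.6% called, against 18.8% of all genes), and 2 calls in all without the second vehicle culture. SRM, the spermidine synthase gene, fell by 0.40 ± 0.06 and AMD1, which makes its aminopropyl donor, by 0.36 ± 0.07. Among 17 NRF2 targets 5 rose and 2 fell, so 41.2% were called, against 18.8% of all genes. SLC7A11, the cystine transporter gene, rose by 0.40 ± 0.09, and GSR, the glutathione reductase gene, fell by 0.39 ± 0.05. SQSTM1, an autophagy receptor gene, rose from 435 ± 28.6 to 609 ± 29.2 CPM (SD, n = 3, edgeR adjusted p 8.1e-05). The nuclear RNA MALAT1 stood at 208, 129 and 184 CPM in vehicle and at 439, 577 and 258 CPM in enzalutamide, with wide spread among treated cultures (1.30 ± 0.29, edgeR adjusted p 9.1e-04).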
